A study of Homo sapiens with 6 samples.

Results

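The tumor necrosis factor (TNF) ligand and receptor superfamily was described in LOX-IMVI cells with and without knockdown of NFKBIZ. Its members were taken by gene name as protein-coding genes whose symbol starts with TNFSF or TNFRSF, together with TNF, LTA, LTB, LTBR, FAS, FASLG, CD27, CD40, CD40LG, CD70, EDA2R, EDAR and RELT. This gave 46 of the 47432 genes listed, 18 ligands and 28 receptors. The name rule used no measured value, but it was set with earlier results of these data known. NFKBIZ encodes IκBζ, an atypical nuclear IκB protein that steers the transcription of a subset of NF-κB target genes.

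RNA-seq was performed on LOX-IMVI, an established human melanoma line grown in RPMI-1640 with serum. All cells had been transduced with a lentiviral pLKO.1 vector and selected with puromycin, and they carried either the control construct (shCtrl) or 1 hairpin against NFKBIZ (shNFKBIZ). Each group had 3 libraries, stated to be independent experiments, so P values measure the spread between such experiments. With 1 hairpin, loss of NFKBIZ and any other effect of that hairpin cannot be told apart.

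Total exon reads per library ran from 22264473 to 24624839. NFKBIZ itself had 1519, 1629 and 1674 reads in shCtrl libraries 1 to 3 and 474, 477 and 468 in the shNFKBIZ libraries, a log2 fold change of -1.78 ± 0.0581 (SE). Of the pigment cell markers, SOX10, MLANA and S100B had no read in any library, TYR had 0 and 1 in the group sums, and MITF was at 3.21 and 2.00 TPM, a read count scaled to gene length and library depth, in shCtrl and shNFKBIZ. Of the markers of dedifferentiated melanoma lines, AXL went from 407 to 486 TPM, FOSL1 from 772 to 1355, EGFR from 39.6 to 66.2, JUN from 213 to 247 and SOX9 from 21.6 to 55.1, while NGFR had 4 and 2 reads. The leukocyte marker PTPRC had 1 and 2 reads, while CD3E, CD8A, NCAM1 and FCGR3A had none. CD14 had 9 and 5 reads, and CD68, a lysosomal protein that is not restricted to macrophages, went from 98.5 to 198 TPM. Only 6.61% of the CD68 reads were unique to the gene, so both values depend on how shared reads were divided. Endothelial and epithelial markers (PECAM1, CDH5, VWF, EPCAM, CDH1 and KRT5) had at most 9 reads in a group. In bulk RNA, fewer cells of a type and less RNA per cell cannot be told apart.

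TNF superfamily ligands are mostly trimeric membrane proteins, some of which are shed, and they engage receptors with cysteine-rich extracellular domains. Receptors with a cytoplasmic death domain can assemble caspase-activating complexes, other receptors bind TRAF adaptors and feed the NF-κB and MAP kinase pathways, and decoy receptors bind ligand without a full signaling domain. In melanoma the family is known both for killing by FAS ligand and TRAIL and for costimulatory contacts with lymphocytes, such as those of CD70 with CD27 and of TNFSF9 with TNFRSF9.

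Promoter sequence was taken from RefSeq on GRCh38.p14, as a stretch of 300 bases around an annotated start, most of it upstream, and 30 of the 46 members had an entry. The 4 sequences printed belong to 4 of the 5 members past the threshold for change described further on, the other being CD70, with 1 promoter for each. They are written 5′ to 3′ on the gene's own strand, and capitals mark matches to the κB consensus or to the AP-1 letters TGANTCA, searched on both strands. RefSeq starts can lie inside the outermost gene bounds of the expression files. The members are TNFRSF9 at chr1:7940790-7941089 (minus strand), TNFRSF14 at chr1:2556121-2556420 (plus strand), TNFSF14 at chr19:6670111-6670410 (minus strand) and TNFSF13B at chr13:108269379-108269678 (plus strand).
TNFRSF9: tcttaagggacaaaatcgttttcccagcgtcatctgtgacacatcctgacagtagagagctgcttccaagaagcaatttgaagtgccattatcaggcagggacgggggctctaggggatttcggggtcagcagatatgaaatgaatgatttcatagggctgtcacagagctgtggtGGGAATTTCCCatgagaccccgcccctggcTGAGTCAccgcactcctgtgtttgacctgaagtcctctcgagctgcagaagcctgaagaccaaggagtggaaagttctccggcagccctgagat
TNFRSF14: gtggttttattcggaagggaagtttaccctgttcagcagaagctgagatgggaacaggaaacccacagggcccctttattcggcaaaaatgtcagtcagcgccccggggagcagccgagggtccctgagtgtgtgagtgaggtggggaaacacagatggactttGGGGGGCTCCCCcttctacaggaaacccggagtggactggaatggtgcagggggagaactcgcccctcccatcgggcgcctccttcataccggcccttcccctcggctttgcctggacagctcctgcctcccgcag
TNFSF14: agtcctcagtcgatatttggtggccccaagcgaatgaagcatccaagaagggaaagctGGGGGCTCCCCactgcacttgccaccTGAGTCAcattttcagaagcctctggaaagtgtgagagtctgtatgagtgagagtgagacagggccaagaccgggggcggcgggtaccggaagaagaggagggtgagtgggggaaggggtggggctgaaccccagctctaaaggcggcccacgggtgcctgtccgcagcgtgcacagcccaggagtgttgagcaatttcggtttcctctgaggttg
TNFSF13B: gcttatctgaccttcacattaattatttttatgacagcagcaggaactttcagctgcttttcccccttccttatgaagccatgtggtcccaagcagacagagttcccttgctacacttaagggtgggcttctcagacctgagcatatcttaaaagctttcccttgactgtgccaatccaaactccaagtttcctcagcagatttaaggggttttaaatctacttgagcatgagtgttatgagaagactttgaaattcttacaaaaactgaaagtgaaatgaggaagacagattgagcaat

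The TNFRSF9 promoter held 2 overlapping κB matches, the first starting 74 bases before the start, and an AP-1 match 44 bases before it. In TNFRSF14, 3 overlapping κB matches began 86 bases before the start. TNFSF14 had 2 overlapping κB matches from 192 bases and an AP-1 match 166 bases before the start. Neither set of letters was present in this window of TNFSF13B. Among all 35116 promoters of the same length, 11.3% held a κB match and 7.71% an AP-1 match. At least 1 κB match was present in 10 of the 30 members and an AP-1 match in 7, where a gene could have more than 1 promoter. Letters in a window are a description and not a measured binding site.

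Receptors made up most of the family's transcripts in shCtrl. A mean of at least 1 TPM was reached by 16 of 46 members, of which 4 were among the 18 ligands and 12 among the 28 receptors. By role, 6 of 7 death domain receptors, 1 of 4 decoy receptors and 5 of 17 other receptors reached it. On this per-length scale TNFRSF12A, the receptor for TWEAK, had the highest mean at 234 ± 24.7 TPM (SD, n = 3), followed by the TRAIL receptor TNFRSF10B at 197 ± 11.5, the main TNF receptor TNFRSF1A at 180 ± 2.14, the lymphotoxin β receptor LTBR at 96.7 ± 4.71 and the decoy receptor TNFRSF6B at 60.3 ± 1.89. The level of TNFRSF6B rests wholly on reads shared with a read-through gene and is 0 TPM on unique reads. Likewise, TNFSF12-TNFSF13 (1.02 TPM), 1 of the 4 ligands counted above, had no unique read. Every shCtrl library of TNFRSF12A (220 to 263 TPM) lay above every library of TNFRSF10B (190 to 210), which in turn lay above those of TNFRSF1A (178 to 182), but the gaps between these neighbours were smaller than the range within TNFRSF12A. TNFSF9, the 4-1BB ligand, was the highest ligand at 28.7 ± 0.505 TPM, and CD70 came next at 15.2 ± 1.82. The plot of levels by library shows the span from receptors above 100 TPM to ligands below 1 TPM.

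**Figure D1:**
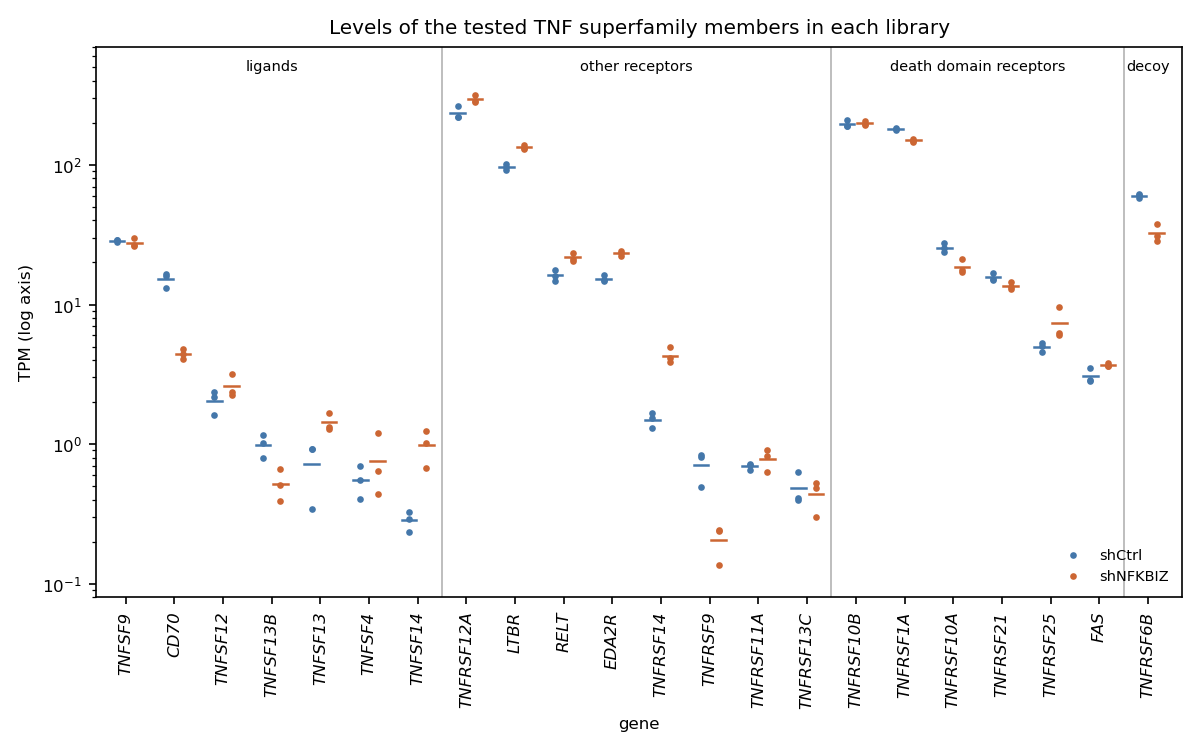
TPM of the 22 tested members in each library on a log axis, grouped by role and ordered by the shCtrl mean, with points for libraries and short lines for group means. CD70 and TNFRSF9 lie lower in shNFKBIZ, TNFRSF14 and TNFSF14 lie higher, and the groups nearly coincide for TNFRSF10B.

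Next, the groups were compared on exon reads with edgeR. The filter kept genes with enough reads in at least 3 libraries, which left 22 of the 46 members and 13843 genes in all. Genes with a Benjamini-Hochberg adjusted P no greater than 0.05 and a change of 2-fold or more were taken as past the threshold. Of the 22 members, 5 were past it, compared with 8.96% of all genes. CD70, TNFRSF9 and TNFSF13B fell, against 5.12% of all genes that fell, and TNFRSF14 and TNFSF14 rose, against 3.84% that rose. TNFRSF9, TNFSF13B and TNFSF14 had fewer than 10 reads in some or all libraries of the group where they were lower. Requiring 10 counts in every library left 17 members tested and 2 past the threshold. The count of 5 thus depends on the filter and does not set the family apart. By adjusted P alone, 16 members passed, 9 higher and 7 lower. That is 72.7% of the tested members beside 65.3% of all genes, so it says little about the family. The median log2 fold change was 0.14 over the members tested and 0.00 over all genes.

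**Figure D2:**
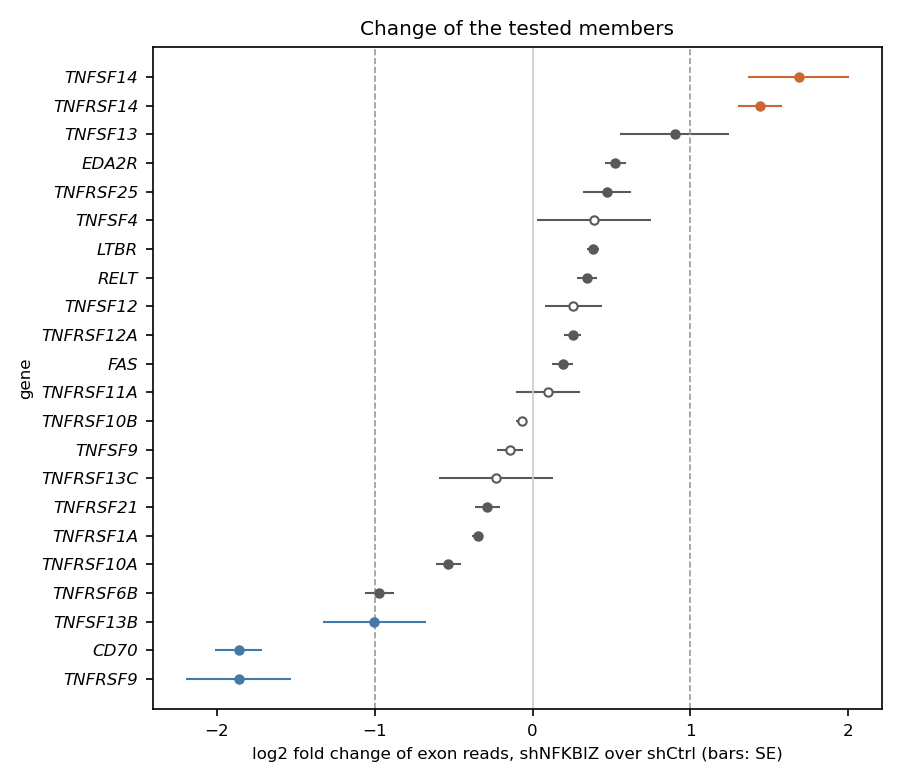
Log2 fold change of exon reads, shNFKBIZ over shCtrl, with SE bars, for the 22 tested members. Filled colored points are past the threshold, filled grey points have an adjusted P of at most 0.05 below a 2-fold change, open points have neither, and dashed lines mark a 2-fold change.

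CD70 had the largest fall among the 7 ligands with enough reads for the test. It lies on chromosome 19 from 6583183 to 6604103 (hg38, minus strand, ENSG00000125726) and encodes the membrane ligand of CD27 on lymphocytes. Its exons held 125, 162 and 142 reads in the control libraries against 43, 39 and 37 after knockdown, so that every knockdown library lay far below every control library. The level went from 15.2 ± 1.82 to 4.43 ± 0.367 TPM (SD, n = 3), 3.63-fold lower (log2 fold change -1.86 ± 0.149 SE, adjusted P = 3.48e-10). Reads in CD70 introns fell likewise, from 77, 68 and 67 to 13, 17 and 9 (log2 fold change -2.52 ± 0.220, adjusted P = 6.06e-12). The receptor CD27 had 1 read in each group.

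TNFSF14 (LIGHT), a ligand of TNFRSF14 and LTBR, moved the other way from a low level. It lies on the same chromosome from 6661253 to 6670588 (minus strand, ENSG00000125735). The control libraries held 7, 10 and 8 of its exon reads and the knockdown libraries 19, 34 and 29, with no overlap between the groups. TPM rose from 0.284 ± 0.0453 to 0.979 ± 0.281, 3.22-fold (log2 fold change 1.68 ± 0.319, adjusted P = 8.39e-05). TNFSF9, CD70 and TNFSF14 are neighbours, with gaps of 47.3 and 57.2 kb and no other listed protein-coding gene between them, yet their log2 fold changes were -0.14, -1.86 and 1.68. For TNFSF9, exon reads of 295, 304 and 265 in shCtrl overlapped with 255, 280 and 255 in shNFKBIZ (adjusted P = 0.128).

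TNFSF13B, which encodes the B cell survival factor BAFF, was the member just inside the 2-fold limit. This gene (chromosome 13, 108251240 to 108308484, plus strand, ENSG00000102524) was covered by 22, 20 and 14 exon reads in the control libraries and by 7, 9 and 12 in the knockdown. The groups did not overlap, but the closest libraries differed by only a few reads. TPM went from 0.989 ± 0.183 to 0.521 ± 0.135 (log2 fold change -1.0 ± 0.327, adjusted P = 0.0105). Its intron reads overlapped between the groups, at 39, 37 and 39 against 37, 28 and 47 (log2 fold change -0.13, adjusted P = 0.666). With DESeq2 the adjusted P was 0.138, and with exon and intron reads combined the log2 fold change was -0.32 (adjusted P = 0.166). The BAFF receptor TNFRSF13C stayed uncalled at 0.481 ± 0.133 and 0.437 ± 0.120 TPM (adjusted P = 0.593).

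Of the remaining ligands with enough reads, TNFSF12 (TWEAK) was at 2.04 ± 0.394 and 2.59 ± 0.50 TPM (adjusted P = 0.218), and TNFSF4 (OX40 ligand) was at 0.552 ± 0.147 and 0.761 ± 0.399 (adjusted P = 0.356). For both, the libraries of the groups overlapped. Of the TNFSF12 reads, 71.2% were unique, and its shCtrl level on unique reads was 1.49 TPM. TNFSF13 (APRIL) is described with its read-through gene.

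TNFRSF14 (HVEM), the receptor of LIGHT and a partner of BTLA, had the largest rise among the tested receptors. It lies on chromosome 1 from 2555639 to 2565382 (plus strand, ENSG00000157873). The controls held 50, 61 and 60 exon reads and the knockdown libraries 141, 176 and 152. All knockdown libraries thus exceeded all control libraries by a wide margin. The level rose from 1.5 ± 0.192 to 4.30 ± 0.551 TPM, 2.71-fold (log2 fold change 1.44 ± 0.138, adjusted P = 6.67e-09). With TNFSF14 and TNFRSF14 both higher, LTBR, the other signaling receptor of LIGHT, also rose, from 3530, 3804 and 3607 reads to 4737, 4905 and 4773 (log2 fold change 0.38 ± 0.0361, adjusted P = 5.02e-09), below the 2-fold limit.

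TNFRSF9 (4-1BB), a costimulatory receptor best known from activated T cells, fell. The gene (chromosome 1, 7915871 to 7943165, minus strand, ENSG00000049249) was covered by 32, 34 and 18 exon reads in the controls and by 9, 5 and 9 in the knockdown. Although shCtrl library 3 was lower than the other 2 controls, it still had more reads than any knockdown library. TPM went from 0.711 ± 0.191 to 0.206 ± 0.0596 (log2 fold change -1.86 ± 0.334, adjusted P = 4.53e-05). The T cell markers CD3E and CD8A had no read in any library, and PTPRC had at most 2 in a group.

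The other receptors without a death domain changed less. EDA2R, a receptor of the ectodysplasin isoform EDA-A2, rose from 336, 341 and 338 to 472, 486 and 516 reads (log2 fold change 0.52 ± 0.0675, adjusted P = 5.98e-07). The TWEAK receptor TNFRSF12A rose from 234 ± 24.7 to 295 ± 18.3 TPM (log2 fold change 0.25 ± 0.0544, adjusted P = 8.93e-04). RELT, an orphan member that binds stress kinases, rose from 16.2 ± 1.38 to 21.8 ± 1.59 TPM (log2 fold change 0.35 ± 0.0614, adjusted P = 4.05e-05). In all, 6 of the 8 tested receptors of this class passed by adjusted P, 5 of them higher and TNFRSF9 lower, a share of 75% near the 65.3% of all genes. The receptor of RANK ligand, TNFRSF11A, was at 0.694 ± 0.0330 and 0.787 ± 0.139 TPM (adjusted P = 0.697).

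None of the 6 tested death domain receptors was past the threshold, beside 8.96% of all genes, and 5 passed by adjusted P, beside 65.3% of all genes. With so few genes, neither count sets this class apart. TNFRSF10A, a TRAIL receptor, fell from 460, 446 and 464 reads to 294, 355 and 307 (log2 fold change -0.53 ± 0.0777, adjusted P = 3.22e-06). TNFRSF1A fell from 4659, 4881 and 4425 reads to 3796, 3600 and 3675 (log2 fold change -0.35 ± 0.0358, adjusted P = 2.02e-08), and in both genes the groups were separate. TNFRSF1A and LTBR, which lie 32.9 kb apart on chromosome 12, therefore moved in opposite directions.

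TNFRSF21 (DR6) fell from 15.6 ± 0.980 to 13.6 ± 0.776 TPM (log2 fold change -0.29 ± 0.0797, adjusted P = 0.00345). TNFRSF25 (DR3), the receptor of TNFSF15, rose from 4.97 ± 0.346 to 7.32 ± 2.00 TPM (log2 fold change 0.47 ± 0.153, adjusted P = 0.0147), with 151, 236 and 159 reads in the knockdown libraries, of which library 2 stood highest. FAS, the receptor of FAS ligand, rose from 515, 540 and 597 to 658, 614 and 633 reads (log2 fold change 0.19 ± 0.0692, adjusted P = 0.0207). Strand was not used in the counting, and the gene bounds of FAS overlap ACTA2 and STAMBPL1, whose log2 fold changes were 0.99 and 0.48. Their part in the FAS value was not tested.

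TNFRSF10B (DR5), the other TRAIL receptor with a death domain, changed in its introns and not by the test in its exons. The exons held 5950, 6105 and 6075 reads in the controls and 5731, 5954 and 5796 in the knockdown, close together and overlapping in raw reads (log2 fold change -0.07 ± 0.0357, adjusted P = 0.102). Intron reads were 403, 406 and 372 in shCtrl and 194, 210 and 195 in shNFKBIZ, clearly separate (log2 fold change -1.07 ± 0.0790, adjusted P = 8.09e-14). The exon change exceeded the intron change by 1.02 ± 0.0851 on the log2 scale (adjusted P = 1.24e-18). RHOBTB2 on the opposite strand overlaps only the end of the gene, from 23020133 to 23020509, and had a log2 fold change of 1.19. Its part in the exon and intron reads was not tested.

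RELT showed the reverse pattern. Its intron reads went from 130, 123 and 123 to 272, 282 and 244 (log2 fold change 0.99 ± 0.0967, adjusted P = 9.70e-11), a larger rise than in exons, and the exon change was lower than the intron change by a log2 difference of -0.63 ± 0.109 (adjusted P = 1.61e-06). Of the 14 members tested in both read classes, TNFRSF10B and RELT were the 2 with an adjusted P of at most 0.05 for this difference, a share of 14.3% compared with 28.9% of all genes. TNFRSF21 joined them without shCtrl library 3 (log2 difference -0.88, adjusted P = 0.0119, against -0.43 with all libraries). On intron reads alone, CD70 and TNFRSF10B were the 2 members past the threshold, both lower, beside 6.6% of all genes. RELT, just under the limit, also passed as higher with library size alone (1.05) and without shCtrl library 1 (1.02) or shNFKBIZ library 3 (1.05), and TNFRSF25 did so without shCtrl library 2 (1.39, adjusted P = 0.0421). For CD70 the difference between exon and intron change was 0.69 on the log2 scale and did not pass (adjusted P = 0.0776).

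**Figure D3:**
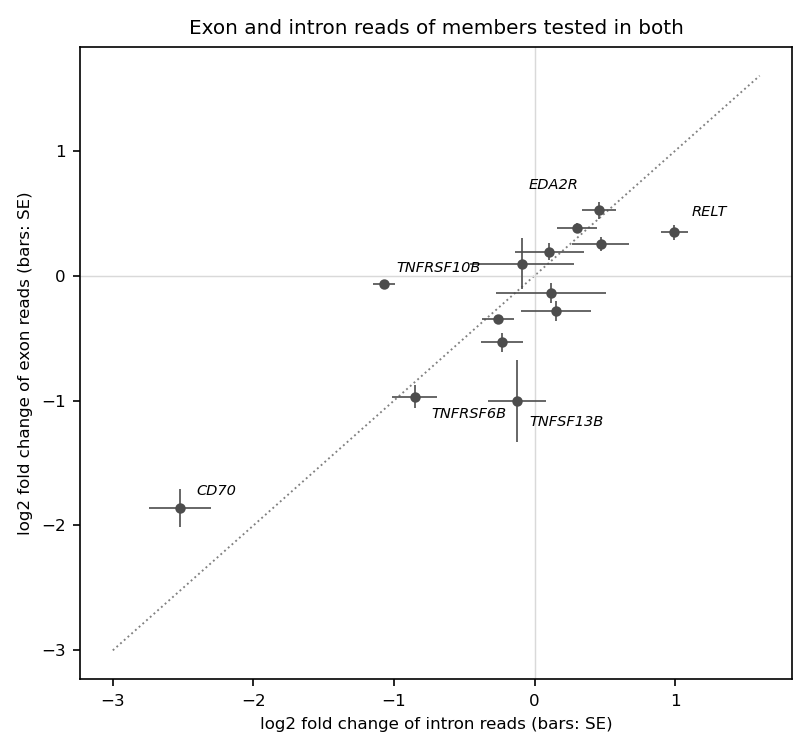
Log2 fold change of exon reads against that of intron reads, shNFKBIZ over shCtrl, with SE bars, for the 14 members tested in both, where the dotted line marks equal change. TNFRSF10B lies left of the line with an intron change of -1.07 and an exon change of -0.07, RELT lies right of it, and CD70 is low on both axes.

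For a pair of members, the value depended on how reads shared with a read-through gene were divided. TNFRSF6B (decoy receptor 3, a soluble receptor that binds FAS ligand, LIGHT and TNFSF15) lay just outside the 2-fold limit, at 412, 446 and 406 reads in shCtrl and 208, 187 and 256 in shNFKBIZ (log2 fold change -0.97 ± 0.0916, adjusted P = 6.83e-09). None of these reads was counted as unique to the gene (0%). The read-through gene RTEL1-TNFRSF6B contains the same exons, but its exon length is 9093 bases against 1140, and it also overlaps RTEL1. It went from 291, 253 and 253 to 406, 582 and 485 reads (log2 fold change 0.87). Summed, the pair had 703, 699 and 659 reads in shCtrl and 614, 769 and 741 in shNFKBIZ, with overlapping groups (log2 fold change 0.03 ± 0.0673, adjusted P = 0.721). This sum can also hold reads from RTEL1, which rose without passing (log2 fold change 0.31, adjusted P = 0.0513). Both the level and the exon fall of TNFRSF6B are therefore uncertain. Its introns held 88, 77 and 68 reads in the controls and 51, 43 and 43 in the knockdown. They changed by -0.85 on the log2 scale (adjusted P = 5.43e-05). The exon and intron changes differed by -0.11 (adjusted P = 0.710). Whether these intron reads came from TNFRSF6B or the read-through gene was not tested.

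TNFSF13, which encodes APRIL, a ligand of plasma and B cell receptors, had the same limit. Its reads were 13, 5 and 12 in shCtrl and 17, 22 and 18 in shNFKBIZ (log2 fold change 0.90 ± 0.344, adjusted P = 0.0261), and 36.8% of them were unique. The read-through gene TNFSF12-TNFSF13, itself a member, had 5, 16 and 13 reads in shCtrl and 0, 0 and 3 in shNFKBIZ. None of these reads was unique (0%), and the gene also overlaps TNFSF12, so a sum can hold reads from TNFSF12. TNFSF13 and the read-through gene together gave 18, 21 and 25 against 17, 22 and 21 reads (log2 fold change -0.11 ± 0.268, adjusted P = 0.740). As seen in the plot of stacked reads, neither sum differed between the groups by more than the spread of the libraries.

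**Figure D4:**
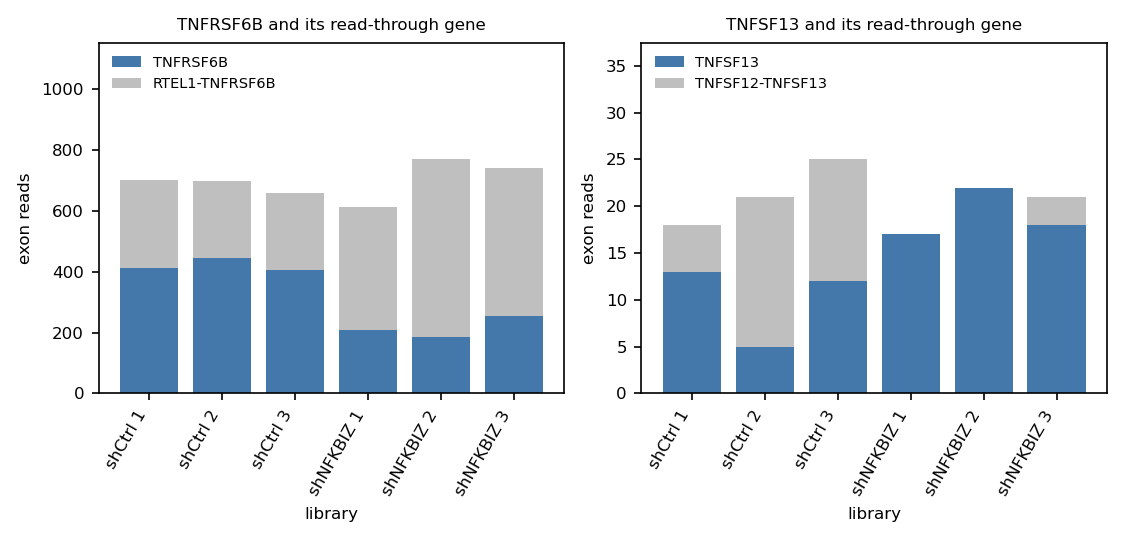
Exon reads per library of TNFRSF6B and TNFSF13 (blue) with the reads of their read-through genes stacked on top (grey). The blue parts differ between shCtrl and shNFKBIZ, while the full bars overlap, at 659 to 703 and 614 to 769 reads for TNFRSF6B and 18 to 25 and 17 to 22 reads for TNFSF13.

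The remaining 24 members had too few reads for the test. EDAR, CD40LG, TNFRSF13B and TNFRSF18 had no exon read in any library, where a count of 0 allows up to 3 reads over the libraries of a group (counting error only). Together with these, 16 members had at most 3 reads in the sum of each group. The others of these are TNFSF10 (TRAIL), FASLG, LTA, TNFSF11 (RANK ligand), TNFSF8, CD27, CD40, TNFRSF1B, TNFRSF8, TNFRSF17, TNFRSF10D and TNFRSF11B. Thus, transcripts of the ligands TRAIL, FAS ligand and RANK ligand were at or near the detection floor in cells with abundant TRAIL receptor and TNF receptor transcripts.

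Above this floor in at least 1 group were 8 members. TNF had 6, 3 and 4 reads in shCtrl and 0, 0 and 1 in shNFKBIZ, a ratio of the summed reads, scaled to depth, of 0.0811 (exact 95% interval 0.00191 to 0.540). LTB, which forms the membrane lymphotoxin heterotrimer with LTA, had 11 and 2 reads in the group sums (ratio 0.192, interval 0.0206 to 0.878). TNFSF12-TNFSF13 had 34 and 3 (ratio 0.0930, interval 0.0183 to 0.296), but none of its reads was unique (0%), so this ratio depends on how shared reads were divided. These intervals cover counting error only and not the spread between libraries.

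Higher in the knockdown sums were TNFSF15, a ligand of TNFRSF25, with 3 and 13 reads (ratio 4.57, interval 1.26 to 25) and TNFRSF19, an orphan receptor, with 15 and 36 (ratio 2.53, interval 1.35 to 4.97). TNFSF18 had 0 and 5 reads, TNFRSF10C 5 and 6 and TNFRSF4 4 and 6, and for these 3 genes the interval of the ratio included 1. Without the filter on low counts, edgeR placed TNF, TNFRSF19 and TNFSF12-TNFSF13 past the threshold as well (adjusted P = 0.00944, 0.0312 and 4.44e-06), from the reads just given. For TNFSF12-TNFSF13 these were all shared reads.

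Furthermore, 40 other genes of TNF receptor signaling were examined, a list of adaptors, kinases, caspases, ubiquitin regulators and shedding proteases. Of these, 38 were tested and 5 were past the threshold (13.2%, beside the 8.96% of all genes), 1 higher and 4 lower. TRAF1, an NF-κB-induced adaptor of TNFRSF9 and related receptors, rose from 2.54 ± 0.383 to 5.79 ± 0.346 TPM (log2 fold change 1.11 ± 0.131, adjusted P = 1.68e-07). It lay close to the 2-fold limit and was under it with total gene reads (0.99) and without shCtrl library 1 (0.99). TNIP1, which restrains NF-κB together with TNFAIP3, fell from 213 ± 4.60 to 110 ± 4.32 TPM (log2 fold change -1.04 ± 0.0369, adjusted P = 3.28e-16).

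MAP3K7, the kinase TAK1, fell from 39.8 ± 1.59 to 20.8 ± 0.546 TPM (log2 fold change -1.02 ± 0.0426, adjusted P = 5.46e-15), whereas its intron reads rose by 0.61 on the log2 scale (adjusted P = 1.21e-06). BIRC3, the ubiquitin ligase cIAP2, fell from 47.7 ± 1.40 to 25 ± 0.407 TPM (log2 fold change -1.01 ± 0.0427, adjusted P = 6.19e-15). TNIP1, MAP3K7 and BIRC3 lay close to this limit too, and scaling by library size alone, which moved the median of all genes by 0.09 on the log2 scale, left 2 genes of the list past the threshold.

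The next largest changes of the list were below 2-fold. ADAM10, a protease that sheds several family members, fell by 0.94 on the log2 scale, the deubiquitinase TNFAIP3 (A20) by 0.73, the stress kinase MAP3K5 by 0.68 and the necroptosis effector MLKL by 0.49, while the initiator caspase CASP8 rose by 0.47. By adjusted P, 28 of the 38 genes passed, 11 higher and 17 lower (73.7%, beside 65.3% of all genes), and the median log2 fold change was -0.07.

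**Figure D5:**
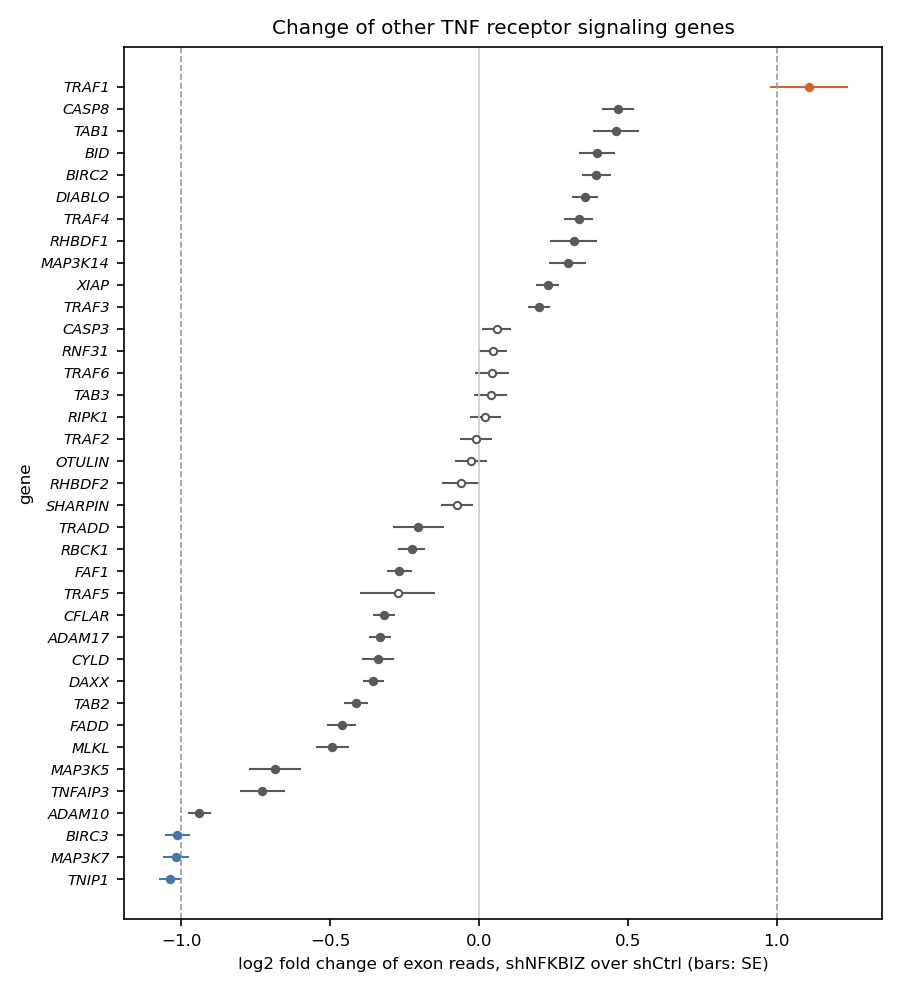
Log2 fold change of exon reads, shNFKBIZ over shCtrl, with SE bars, for 37 of the 38 tested genes of the signaling list. Filled colored points are past the threshold, filled grey points have an adjusted P of at most 0.05 below a 2-fold change, open points have neither; TRAF1 stands alone on the right beyond the dashed 2-fold line, and TNIP1, MAP3K7 and BIRC3 lie left of the other line.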

How the data were processed

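RNA-seq counts of 6 LOX-IMVI libraries were used, grouped by sample title. The authors mapped reads to hg38 in CLC Genomics Workbench and deposited raw counts per gene, split into exon, intron, total and unique reads. Strand was not used. TPM was computed here from total exon counts and exon length, without TMM scaling, so small TPM and log2 fold changes can differ in sign. Counts were filtered with filterByExpr, scaled by TMM factors and compared with the two-sided quasi-likelihood test of edgeR 4.0.16 in R 4.3.3, with Benjamini-Hochberg adjustment over all genes tested (13843 exon, 12119 intron, 11025 both). Level errors are SD over 3 libraries, and log2 fold change errors are SE. The exon-minus-intron comparison and the read-through sums were chosen after values were seen. Summed low counts were compared with exact 95% intervals.

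Named were members past the threshold, those with an adjusted P no greater than 0.05 whose log2 fold change was 0.5 or more in size, the 5 highest in shCtrl, a set of well-known ligands and receptors, those nearest the 2-fold limit and, of the signaling list, genes past the threshold and the next 5. TNFSF12-TNFSF13, TNFRSF25, TNFRSF19, RELT, TNFSF18 and TNFRSF4 were named after their values were seen. Members and lists were chosen with earlier results of these data known. Replicates differed beyond counting noise (chi-square per degree of freedom 1.69 to 4.37). Alternatives were other scaling (RLE factors, library size alone), other filters, DESeq2 1.42.0, unique reads (for TPM too) or total gene reads, a replicate block and leaving out each library. For 1 gene of the signaling list, counted in the totals, and 1 marker, no values are reported here.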

Additional observations from a re-analysis of the deposited data

How the results depend on the processing

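CD70, TNFRSF9, TNFRSF14 and TNFSF14 stayed past the threshold under every alternative that gave them a value, with log2 fold changes of -2.04 to -1.77, -2.07 to -1.63, 1.35 to 1.53 and 1.5 to 1.88. TNFSF13B was no longer past it with library size alone (-0.91), DESeq2, total gene reads or the replicate block, nor without shCtrl library 1 or 2 or shNFKBIZ library 1 or 2 (-0.98 to -0.84). The same replicate numbers did not pair the samples (correlations of deviations 0.0207, 0.0561 and 0.0288), and the replicate block gave 4 members past the threshold in place of 5 and 1244 genes in all. Requiring 10 counts in every library left 2 members past it, since TNFRSF9, TNFSF13B and TNFSF14 were not tested, and 1 on intron reads, where library size alone gave 3 and leaving out 1 library 2 to 3. No filter gave 8. Leaving out 1 library gave 4 to 7 members, where TNFRSF6B passed without shNFKBIZ library 3 (-1.10) and TNFSF13 without shCtrl library 1 or 3 (1.12 and 1.08). TNFSF12-TNFSF13 also passed without shCtrl library 1 or shNFKBIZ library 1, 2 or 3, and TNFRSF19 without shCtrl library 3 or shNFKBIZ library 2. In place of TNFSF13B, DESeq2 called TNFSF12-TNFSF13 and total gene reads called TNFRSF19, so both counts stayed at 5. For the signaling list, 2 genes were past the threshold with library size alone, 3 with total gene reads and 3 to 5 with 1 library left out, the lowest without shCtrl library 1, where TRAF1 and BIRC3 fell short of 2-fold. The log2 fold change changed sign for TNFRSF10B with library size alone (0.0218) and for TNFRSF6B (0.0292) and TNFSF13 (-0.11) with read-through reads added, and the cause was not tested beyond that. Leaving out 1 library moved the log2 fold changes of TNFSF4 (-0.11 to 0.67), TNFRSF11A (-0.0046 to 0.22) and TNFRSF13C (-0.39 to 0.0338) across 0, all uncalled, and likewise the exon-minus-intron differences of TNFRSF1A (-0.17 to 0.0472), TNFRSF6B (-0.27 to 0.0219) and TNFRSF11A (-0.16 to 0.42). TNFRSF25 had an adjusted P of 0.0857 and a log2 fold change of 0.24 without shNFKBIZ library 2, and it also missed an adjusted P of 0.05 without shCtrl library 1 or 3, as FAS did without shCtrl library 1 or 2 or shNFKBIZ library 1 and with DESeq2 (highest 0.134). TNFSF13 missed an adjusted P of 0.05 with DESeq2 (0.199) and without shNFKBIZ library 2 (0.0930). Without shCtrl library 2 it missed too (0.170, log2 fold change 0.56).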
